A study of Mus musculus with 10 samples.

Results

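Core glycolysis is the run of enzymes that carries glucose phosphate to pyruvate and on to lactate, and 10 of its genes were followed step by step in 2 mouse muscles. The members are Gpi1, Pfkm, Aldoa, Tpi1, Gapdh, Pgk1, Pgam2, Eno3, Pkm and Ldha, 1 gene for each step from glucose phosphate isomerase to lactate dehydrogenase, and they are 10 of the 20009 genes with a count. They were taken by name, with earlier results of these data known, and the rule itself uses no measured value. The counts of all annotated transcripts of each gene were summed in each library. The libraries came from the soleus and the tibialis anterior (TA) of wild-type mice, with 3 male and 2 female libraries of each muscle, so 5 soleus libraries were set against 5 TA libraries. The labels gave no strain, age or treatment, and the sample titles gave replicate numbers but no animals. The main test did not pair libraries by number, and a fit that did so is given at the end. P-values therefore measure the spread between these libraries, and part of that spread may be technical.

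Each enzyme in the chain hands its product to the next, and the chain yields ATP without oxygen. Fast-twitch muscle such as the TA is known for high glycolytic capacity, and slow-twitch muscle such as the soleus for oxidative metabolism. Several steps have a form that is typical of muscle (Pfkm, Pgam2, Eno3) beside forms used in other tissues, and lactate dehydrogenase is a tetramer built from Ldha and Ldhb subunits.

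The levels of all 10 genes were lower in soleus than in TA. In a test over 5115 genes (edgeR quasi-likelihood test with Benjamini-Hochberg adjustment, threshold 0.05), 10 of 10 members were called lower in soleus and 0 higher, where 11.0% of all genes tested were called lower in soleus. On the CPM scale, where a count is divided by the size of its library after scaling between libraries, 9 of 10 had no soleus library as high as any TA library, where 7.76% of all genes tested had that pattern. Log2 fold changes of soleus over TA ran from -3.06 for Tpi1 to -0.83 for Gpi1, with a median of -1.88, against a median of 0.01 over all genes tested. Of the 5115 genes, 112 (2.19%) had a fold change at or below the members' median. All 10 members passed the filter on low counts, so none is missing from these figures.

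The libraries held 726414 to 961844 counts each. The transcript Gm20594 took 22.1% to 28.4% of the counts in soleus and 17.2% to 20.9% in TA. The second female soleus library listed 22862 transcripts where the others listed 14993 to 16575, and without it the same test still called 10 members and 0 in the other direction, among 1105 genes called in all. Counts fall mainly on sequence that only 1 annotated transcript has, so the level of 1 gene cannot be set against that of another, and only ratios between the muscles are compared here. In whole muscle, fewer cells of a type and less RNA per cell cannot be told apart. The fiber markers went with the labelled muscles: 6 of 6 slow-fiber genes were higher in soleus (summed level 5116 to 6965 CPM in soleus and 0 to 12.7 CPM in TA, with Tnni1 and Myl2 at 0 in TA), and 6 of 6 fast-fiber genes were lower in soleus (88.3 to 983 CPM in soleus and 20434 to 35286 CPM in TA). Of other cell types, endothelial markers (2 of 3 tested lower in soleus, summed level 195 to 292 CPM in soleus and 287 to 843 CPM in TA) and markers of smooth muscle and pericytes (2 of 3 lower, 398 to 641 CPM in soleus and 587 to 1169 CPM in TA) moved in the direction of the enzymes. In the other direction went 1 tenocyte marker of 5 tested, 1 adipocyte marker of 2 and 1 skin marker of 1, while 0 of 5 red blood cell markers (260 to 36755 CPM in soleus and 1562 to 21705 CPM in TA), 0 of 1 macrophage marker and 0 of 1 Schwann cell marker were called. The part of fiber type and of these cells in the enzymes' difference was not tested.

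**Figure D1:**
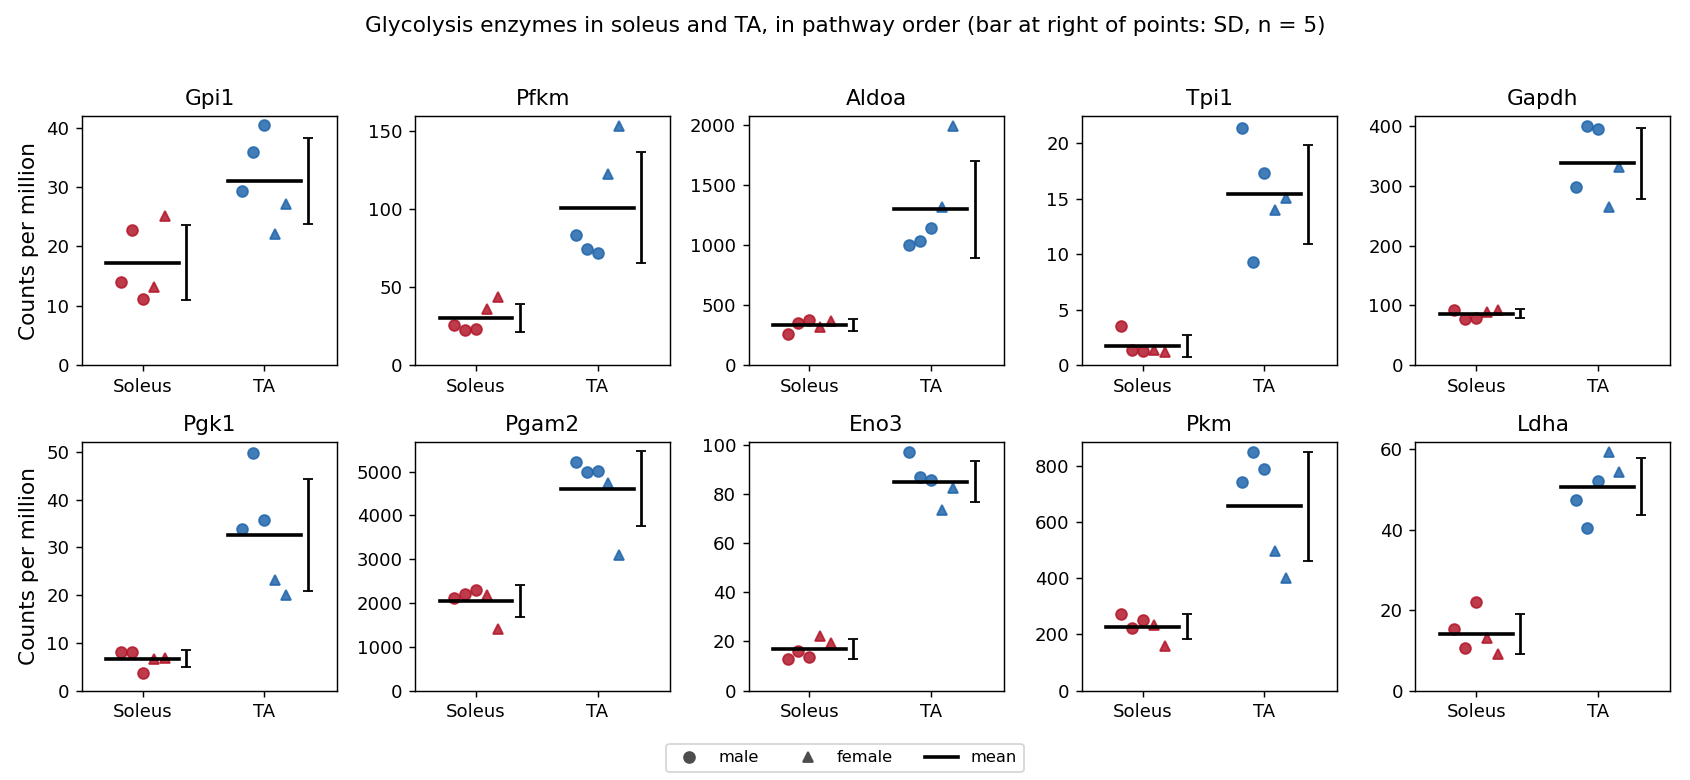
Level of each of the 10 enzymes in every library, in CPM on linear axes that start at 0, with soleus at the left and TA at the right of each panel. Circles are male and triangles female libraries, the thick line is the mean and the bar beside the points is the SD (n = 5). Only in the Gpi1 panel do points of the 2 muscles overlap.

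The upper part of the pathway, from glucose phosphate to the triose phosphates, is made up of Gpi1, Pfkm, Aldoa and Tpi1. Values per library are given below with the 3 male libraries first and the 2 female libraries after them. Gpi1 (ENSMUSG00000036427; GRCm38 chromosome 7, 34201330 to 34230336, minus strand), which turns glucose phosphate into fructose phosphate, had 14.0, 22.8, 11.1, 13.2 and 25.1 CPM in soleus, against 29.3, 35.9, 40.5, 22.1 and 27.2 CPM in TA. Its muscles overlapped, since 2 soleus libraries were above the lowest TA library. The log2 fold change was -0.83 (SE 0.28, n = 5 per muscle, edgeR adjusted p = 0.0489). This call was lost under 12 of 20 alternative settings, among them the DESeq2 Wald test (adjusted p = 0.0667), and adjusted p-values over those settings ran from 0.0088 to 0.827.

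Pfkm (ENSMUSG00000033065; chromosome 15, 98092589 to 98132451, plus strand), the muscle phosphofructokinase that commits sugar to the pathway, had 25.7, 22.8, 23.4, 35.6 and 43.4 CPM in soleus, against 83.4, 74.1, 71.7, 122 and 153 CPM in TA. In both muscles the 2 female libraries were the highest. The log2 fold change was -1.72 (SE 0.15, edgeR adjusted p = 5.07e-06).

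Aldoa (ENSMUSG00000030695; chromosome 7, 126795234 to 126800751, minus strand), the aldolase that splits the sugar into triose phosphates, had 259.6, 351, 374, 316 and 370.0 CPM in soleus, against 1000.2, 1033, 1144, 1316 and 1986 CPM in TA. The lowest TA library was thus far above the highest soleus library. The log2 fold change was -1.92 (SE 0.17, edgeR adjusted p = 9.10e-06). Tpi1 (ENSMUSG00000023456; chromosome 6, 124810586 to 124814296, minus strand), which interconverts the trioses, rested on 7 counts in all of soleus and 69 in all of TA. It had 3.51, 1.34, 1.23, 1.32 and 1.14 CPM in soleus, against 21.4, 9.27, 17.3, 14.0 and 15.1 CPM in TA. Its log2 fold change of -3.06 had the widest error of the 10 (SE 0.52, edgeR adjusted p = 0.000272), and the pooled counts scaled to library size gave a ratio of soleus to TA of 0.112 with a 95% counting interval of 0.0434 to 0.243. Intervals of this kind cover counting error only.

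The lower part, from the trioses to lactate, is made up of the other 6 genes. Gapdh (ENSMUSG00000057666; chromosome 6, 125161715 to 125166467, minus strand), the dehydrogenase that makes NADH, had 92.4, 77.6, 78.7, 89.6 and 92.5 CPM in soleus, against 299, 401, 395, 264 and 332 CPM in TA. The soleus libraries lay close together and far below all TA libraries. The log2 fold change was -1.96 (SE 0.15, edgeR adjusted p = 3.23e-06). Pgk1 (ENSMUSG00000062070; chromosome X, 106187100 to 106203699, plus strand), the kinase of the first ATP-yielding step, had 8.19, 8.03, 3.69, 6.59 and 6.85 CPM in soleus, against 33.8, 49.8, 35.8, 23.3 and 20.1 CPM in TA. It differed by -2.23 (SE 0.30, edgeR adjusted p = 0.000138). Of the 31-base sequences in its transcripts, 54.7% also occur in another gene, the largest share of the 10, so the counting may have split its reads with copies elsewhere.

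Pgam2 (ENSMUSG00000020475; chromosome 11, 5801640 to 5803733, minus strand) is the muscle form of phosphoglycerate mutase. It has 1 annotated transcript, and none of its 31-base sequences occurs in another gene. It had 2116, 2208, 2292, 2185 and 1411 CPM in soleus, against 5224, 4981, 5013, 4749.8 and 3095 CPM in TA. In both muscles the second female library was the lowest. Pgam2 differed by -1.17 (SE 0.16, edgeR adjusted p = 0.000205).

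Eno3 (ENSMUSG00000060600; chromosome 11, 70657202 to 70662513, plus strand), the muscle enolase, had 12.9, 16.1, 13.5, 22.4 and 19.4 CPM in soleus, against 97.0, 86.9, 85.5, 73.3 and 82.5 CPM in TA. Its log2 fold change was -2.33 (SE 0.19, edgeR adjusted p = 3.24e-06). In soleus the female libraries were the highest and in TA they were the lowest. Pkm (ENSMUSG00000032294; chromosome 9, 59656368 to 59679375, plus strand), the pyruvate kinase, had 272, 222, 253, 233 and 159 CPM in soleus, against 744, 849, 788, 497 and 402 CPM in TA, a log2 fold change of -1.48 (SE 0.16, edgeR adjusted p = 2.71e-05). Ldha (ENSMUSG00000063229; chromosome 7, 46841475 to 46855627, plus strand), the muscle-type subunit of lactate dehydrogenase, had 15.2, 10.7, 22.1, 13.2 and 9.14 CPM in soleus, against 47.4, 40.5, 52.0, 59.3 and 54.3 CPM in TA. It differed by -1.84 (SE 0.25, edgeR adjusted p = 0.000165), with no overlap between the muscles. The retained-intron transcript Ldha-204 held 21.1% of the pooled Ldha counts in soleus and 32.2% in TA, on 12 and 73 counts. In a test of each transcript against its gene, added after the values were seen, Ldha-204 was not called. It differed from Ldha by -0.30 on the log2 scale (edgeR diffSpliceDGE adjusted p = 0.9996).

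Along the pathway the fold changes did not move in one direction from the first step to the last. In order of size they ran Tpi1, Eno3, Pgk1, Gapdh, Aldoa, Ldha, Pfkm, Pkm, Pgam2 and Gpi1. For 8 of the 9 pairs of neighbours in this order, the gap was smaller than the sum of their SEs. The exception was the gap of 0.73 between Tpi1 and Eno3, against a sum of SEs of 0.71. Neighbours in a sorted order lie close by construction, so these gaps do not tell whether steps further apart differ. Eno3 (-2.33, SE 0.19) and Pgam2 (-1.17, SE 0.16) were further apart. Levels were also set against each other within a sex and replicate number, as the log2 CPM of soleus minus TA with a prior count of 2, which shrinks the differences of genes with few counts. All 5 pairs were lower in soleus for each of the 10 genes.

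The step that varied least between pairs was Pgam2, with a mean difference of -1.17 ± 0.08 (SD, n = 5 pairs) and a range of -1.30 to -1.12. Pfkm followed with -1.64 ± 0.09 and a range of -1.76 to -1.53, so the ranges of these 2 genes did not overlap. The steps that varied most were Gpi1, with -0.80 ± 0.58 and a range of -1.67 to -0.10, and Pgk1, with -1.92 ± 0.57 and a range of -2.66 to -1.29. The other 6 genes had SDs from 0.31 to 0.44. Counting error is larger for genes with few counts, and its part in these SDs was not tested. Per soleus library Pgam2 had 1236 to 1865 counts, Pfkm 17 to 38, Gpi1 9 to 22 and Pgk1 3 to 7. These are descriptions of 5 pairs, and no test was run between steps.

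**Figure D2:**
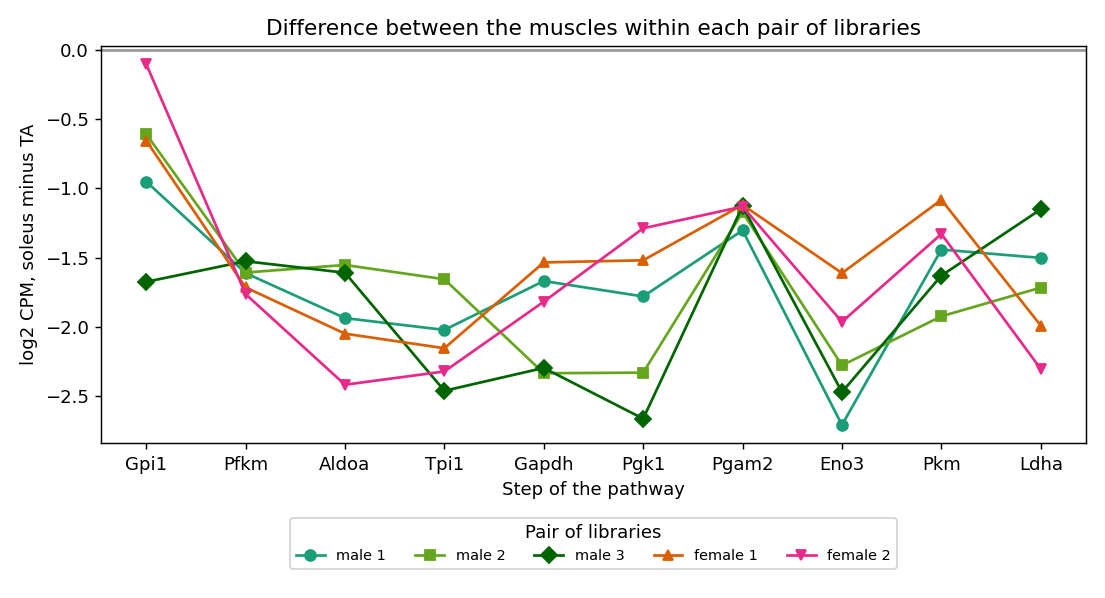
Difference in log2 CPM, soleus minus TA, for each of the 10 genes in pathway order, with 1 line for each pair of libraries of the same sex and replicate number. All points lie below 0, the lines meet at Pgam2 (-1.30 to -1.12), and they spread at Gpi1 (-1.67 to -0.10).

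Shares of counts, which do not depend on the scaling between libraries, moved the same way. The 10 genes together took 0.277% ± 0.0498 of the counts in soleus and 0.727% ± 0.0369 in TA (SD over 5 libraries). Without Pgam2, the other 9 took 0.073% ± 0.0064 in soleus and 0.264% ± 0.0448 in TA. Within the 10, Pgam2 took 73.1% ± 3.98 of the counts in soleus and 63.4% ± 7.51 in TA, and these ranges overlapped. Since the levels of different genes cannot be compared here, shares within the 10 are read only between the muscles. They do not show how much RNA of each enzyme there was. Eno3 took 0.624% ± 0.206 in soleus and 1.18% ± 0.125 in TA, and Pgk1 took 0.246% ± 0.0783 in soleus and 0.445% ± 0.137 in TA. Eno3 and Pgk1 were the 2 members whose shares did not overlap between the muscles. With Pgam2 left out of the sum, the shares of all 9 remaining genes overlapped.

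The promoters of Pgam2, Eno3 and Gapdh are shown because the first 2 are muscle forms of their steps and Gapdh is often used as a reference gene. Each window is the 250 bases upstream of the RefSeq start (GRCm38.p6), printed 5′ to 3′ on the gene's strand. Capitals mark matches, on either strand, to the E-box CANNTG bound by myogenic factors, the hypoxia response core ACGTG, the MEF3 core TCAGGTT, and the MEF2 consensus. The Pgam2 window is chr11:5803797-5804046 (minus strand), the Eno3 window chr11:70656926-70657175 (plus strand) and the Gapdh window chr6:125165774-125166023 (minus strand).
Pgam2: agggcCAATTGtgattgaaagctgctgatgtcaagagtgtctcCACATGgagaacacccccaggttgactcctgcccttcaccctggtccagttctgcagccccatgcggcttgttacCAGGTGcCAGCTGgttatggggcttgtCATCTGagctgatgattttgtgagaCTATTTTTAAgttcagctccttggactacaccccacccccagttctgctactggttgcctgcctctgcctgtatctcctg
Eno3: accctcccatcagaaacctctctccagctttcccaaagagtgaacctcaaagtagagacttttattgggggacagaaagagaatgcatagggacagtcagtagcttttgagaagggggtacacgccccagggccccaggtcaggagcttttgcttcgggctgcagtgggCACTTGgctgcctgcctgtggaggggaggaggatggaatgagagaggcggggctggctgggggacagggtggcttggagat
Gapdh: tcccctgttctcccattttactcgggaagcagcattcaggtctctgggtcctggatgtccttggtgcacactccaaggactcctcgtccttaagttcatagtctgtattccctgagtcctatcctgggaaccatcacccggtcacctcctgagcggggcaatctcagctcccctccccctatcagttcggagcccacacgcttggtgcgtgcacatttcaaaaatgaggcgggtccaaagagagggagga

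The Pgam2 window held 5 E-boxes and 1 MEF2 match, the Eno3 window held 1 E-box, and the Gapdh window held no match to these 4 motifs. Over the 17 RefSeq windows of the 10 genes, 14 held an E-box, against 66.2% of 32841 mouse windows of the same length. The hypoxia core was in 7 of 17, against 16.6% of all windows, and can overlap an E-box. The 17 windows are not all separate: 2 of Aldoa share most of their bases and both hold the core, and 2 of Pfkm also overlap. The GC box (GGGCGG) was in 7 of 17, against 32.8% of all windows, and the TATA box (TATAAA) in 0 of 17, against 12.4%, both read on both strands. The MEF3 core was in 0 of 17, against 3.49% of all windows, and the MEF2 consensus in 1 of 17, against 2.92%. A match is a description of the letters, and these data do not measure binding.

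Transcripts within a gene did not all follow the gene. In a test of each transcript against its gene, 2 of 13 member transcripts were called, both of Pfkm. Of all transcripts in that test, 6.99% were called. Of the members' transcripts, 60 had a count and 17 passed the filter. Of these, 15 were called lower in soleus and 0 higher (edgeR over 5089 transcripts), where 24.2% of all transcripts tested were called in either direction and 11.7% lower in soleus. The 2 not called were Gapdh-203, a protein-coding form with a log2 fold change of -1.35 (SE 0.50, edgeR adjusted p = 0.0606), and Pfkm-201, with 0.82 (SE 0.41, edgeR adjusted p = 0.169). Gapdh-203 was called in 3 of 13 alternatives, among them the fit without the filter (-1.44, edgeR adjusted p = 0.018). Of the 15 called, the 1 Gpi1 transcript lost its call in 7 of 13 alternatives, with edgeR adjusted p up to 0.0881. Names such as Pfkm-201 are those of GENCODE M21.

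The Pfkm transcripts Pfkm-205 and Pfkm-201 have annotated starts 15822 bases apart, and the muscles differed in how counts were divided between these transcripts. Pfkm-205 begins at the upstream start, at 98092644, and Pfkm-201 at the downstream one, at 98108466. Both then run on through the same exons from the third on. The sequence that tells Pfkm-201 apart lies mostly in its own first exon (131 of its 144 particular 31-base sequences). That of Pfkm-205 lies mostly in its second exon (46 of 57, with 7 in the first). This second exon begins at 98112121, where that of Pfkm-201 begins at 98112154, and RefSeq also lists a Pfkm start at 98112060. Counts on Pfkm-205 therefore do not show directly that the upstream start was used. The windows before both starts are shown because the counts on these transcripts differed between the muscles. They are chr15:98092339-98092588 and chr15:98108221-98108470, both on the plus strand, marked as above. The Pfkm-205 window is drawn from the RefSeq start, which lies 55 bases upstream of the annotated start of Pfkm-205. These windows, and those of Aldoa, were chosen after the values were seen.
Pfkm-205: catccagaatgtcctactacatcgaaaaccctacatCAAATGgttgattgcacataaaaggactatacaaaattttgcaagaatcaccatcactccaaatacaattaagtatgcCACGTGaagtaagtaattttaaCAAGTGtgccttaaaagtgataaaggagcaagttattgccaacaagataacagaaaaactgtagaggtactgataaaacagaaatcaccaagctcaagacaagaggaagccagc
Pfkm-201: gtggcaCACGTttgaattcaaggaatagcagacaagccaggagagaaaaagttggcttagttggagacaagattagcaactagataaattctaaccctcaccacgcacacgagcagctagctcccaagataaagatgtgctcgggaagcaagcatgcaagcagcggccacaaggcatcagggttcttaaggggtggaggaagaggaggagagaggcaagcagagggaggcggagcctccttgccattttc

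The upstream window held 3 E-boxes, 1 of which contains the hypoxia core read on both strands, and the downstream window held no E-box and 1 hypoxia core. Pfkm-205 had 9.35, 11.9, 8.66, 21.1 and 22.5 CPM in soleus, against 82.8, 65.9, 66.3, 101 and 137 CPM in TA. Its counts summed to 59 in soleus and 414 in TA, and it was far lower in every soleus library. Its log2 fold change was -2.64 (SE 0.19, edgeR adjusted p = 1.15e-06).

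Pfkm-201 had 14.0, 10.6, 14.8, 14.5 and 22.5 CPM in soleus, against 1.13, 8.09, 4.57, 19.5 and 13.9 CPM in TA, or 62 and 43 counts in all. The muscles overlapped, and the female TA libraries were above the male ones. Of the counts on both transcripts, Pfkm-201 took 52.2% ± 9.27 in soleus (40.7% to 63.2%) and 8.83% ± 5.49 in TA (1.35% to 16.2%), with no overlap. In a test of each transcript against its gene, added after the values were seen, Pfkm-201 differed from the gene by 2.55 on the log2 scale (edgeR diffSpliceDGE adjusted p = 1.64e-05, over 501 transcripts of which 6.99% were called). That call held when any 1 library was left out (adjusted p from 7.29e-06 to 0.000424).

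Pfkm-205 differed from the gene in the other direction, by -0.92 (edgeR diffSpliceDGE adjusted p = 0.0279). This call was lost when any 1 of 7 libraries was left out, with the adjusted p at 0.103 without male soleus library 1, 0.0587 without male soleus library 2 and 0.0867 without male soleus library 3. It was at 0.0706 and 0.0537 without male TA libraries 1 and 3, and at 0.0614 and 0.0927 without female TA libraries 1 and 2. Pfkm-202, which shares the upstream first exon, has no 31-base sequence of its own, so its reads could not be told from those of the other forms. The gene-level fold change of Pfkm is therefore a sum over forms that did not move alike.

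**Figure D3:**
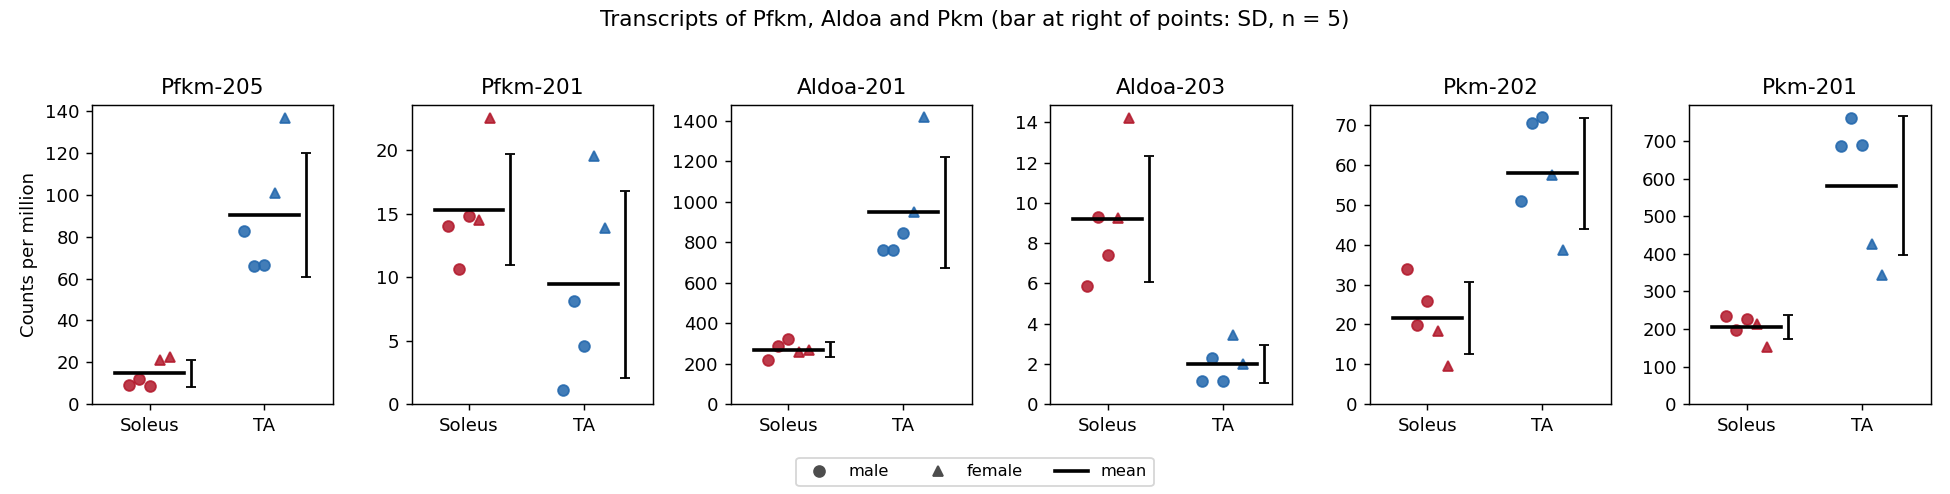
Level of 6 transcripts in every library, in CPM on linear axes that start at 0, with soleus at the left and TA at the right. Symbols are as in the plot of the 10 genes. Pfkm-205 and Aldoa-201 are lower in all soleus libraries, the Pfkm-201 libraries overlap, all soleus libraries are above TA for Aldoa-203, and Pkm-202 and Pkm-201 are both lower in soleus.

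Aldoa showed a second case of this kind at low counts. Aldoa-201, which starts at 126799254, and Aldoa-203, which starts 1193 bases further upstream at 126800447, share their exons from the second on, and the 31-base sequences that tell them apart lie in their first exons (84 for Aldoa-201 and 87 for Aldoa-203). The windows before these starts are chr7:126799255-126799504 and chr7:126800448-126800697, both on the minus strand, shown for comparison of the starts and marked as above.
Aldoa-201: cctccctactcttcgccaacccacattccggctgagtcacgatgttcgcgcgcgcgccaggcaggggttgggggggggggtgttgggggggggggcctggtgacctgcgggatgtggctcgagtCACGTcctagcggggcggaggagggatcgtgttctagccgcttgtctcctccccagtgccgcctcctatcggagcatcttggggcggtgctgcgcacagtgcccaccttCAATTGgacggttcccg
Aldoa-203: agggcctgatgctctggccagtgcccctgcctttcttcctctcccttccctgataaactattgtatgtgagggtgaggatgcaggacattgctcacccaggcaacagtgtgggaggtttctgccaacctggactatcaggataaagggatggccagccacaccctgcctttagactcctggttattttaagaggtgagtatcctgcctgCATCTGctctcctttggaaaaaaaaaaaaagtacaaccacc

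The Aldoa-201 window was 67.6% G and C, with 1 E-box and 1 hypoxia core, and the Aldoa-203 window was 50.4% G and C, with 1 E-box. Aldoa-201 had 219, 285, 322, 257 and 267 CPM in soleus, against 760.1, 764, 846, 952 and 1421 CPM in TA. It was lower in every soleus library, with a log2 fold change of -1.78 (SE 0.18, edgeR adjusted p = 1.89e-05). Aldoa-203 had 5.85, 9.28, 7.42, 9.24 and 14.2 CPM in soleus, against 1.13, 2.31, 1.14, 3.45 and 1.98 CPM in TA.

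Aldoa-203 was thus higher in every soleus library, with 37 counts in soleus and 9 in TA. Scaled to library size this was a ratio of soleus to TA of 4.54 with a 95% counting interval of 2.15 to 10.7. It did not pass the filter on low counts. In a fit without that filter its log2 fold change was 2.05 (SE 0.65, edgeR adjusted p = 0.0206). It took 3.31% ± 1.09 of the counts on both transcripts in soleus and 0.217% ± 0.106 in TA.

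GENCODE M21 holds a second gene record with the symbol Aldoa (ENSMUSG00000114515; chromosome 7, 126800790 to 126809108, minus strand), which ends 38 bases upstream of the first. It is not a member and was kept apart. Its counts summed to 3 in soleus and 157 in TA, which scaled to library size is a ratio of soleus to TA of 0.0211 with a 95% counting interval of 0.0043 to 0.0628. Nearly all of these counts were on Aldoa-213, a form annotated as subject to nonsense-mediated decay, which had at most 1.33 CPM in soleus and 28.9 to 42.5 CPM in TA. Aldoa-210, a coding form of the member gene, had 222 counts in soleus and 1471 in TA and differed by -2.55 (SE 0.21, edgeR adjusted p = 4.08e-06). It was not called against its gene (-0.62, edgeR diffSpliceDGE adjusted p = 0.139). Its share of the counts on Aldoa-210 and Aldoa-201 overlapped between the muscles (11.6% to 27.4% in soleus and 23.3% to 26.7% in TA).

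Gapdh was counted mainly outside its coding transcripts. The retained-intron transcript Gapdh-213 held 91.1% of the gene's counts, and 2132 of its 3289 bases lie outside the exons of Gapdh-203. The protein-coding forms Gapdh-201 and Gapdh-202 have no 31-base sequence of their own and had no count. Of the 1242 such sequences of Gapdh-201, 1144 also occur in another gene. Gapdh-213 had 69.0 to 81.8 CPM in soleus and 238 to 381 CPM in TA, and differed by -2.01 (SE 0.15, edgeR adjusted p = 3.21e-06). The value for Gapdh is therefore mostly one for counts given to a form annotated as a retained intron. Where in that form the reads lie was not seen. The coding form Gapdh-203 had 26 counts in soleus and 75 in TA. With protein-coding transcripts only, Gapdh differed by -1.39 on the log2 scale (edgeR adjusted p = 0.0118).

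Pkm is spliced with 1 of a pair of exclusive exons, which give the M1 form known from adult muscle and the M2 form known from growing cells. Pkm-202 carries the M1 exon (chr9:59675029-59675195) and Pkm-201 the M2 exon (chr9:59675568-59675734), both on the plus strand and read here from GENCODE M21. Both exons are 167 bases long and differ at 64 positions. They are shown because these bases decide which form a read can be given to, and capitals mark the bases that differ.
Pkm-202: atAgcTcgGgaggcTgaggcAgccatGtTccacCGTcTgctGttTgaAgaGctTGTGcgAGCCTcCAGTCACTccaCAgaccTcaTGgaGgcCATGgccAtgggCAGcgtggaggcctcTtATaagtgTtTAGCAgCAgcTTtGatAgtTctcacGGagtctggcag
Pkm-201: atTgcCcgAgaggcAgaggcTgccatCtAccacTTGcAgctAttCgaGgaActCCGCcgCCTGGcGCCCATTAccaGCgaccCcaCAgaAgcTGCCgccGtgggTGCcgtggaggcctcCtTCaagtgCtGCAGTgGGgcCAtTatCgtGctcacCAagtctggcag

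Pkm-202 had 33.9, 19.9, 26.0, 18.5 and 9.48 CPM in soleus, against 51.1, 70.5, 72.0, 57.5 and 38.6 CPM in TA. Pkm-201 had 235, 198, 226, 214 and 153 CPM in soleus, against 688, 763, 689, 428 and 343 CPM in TA. Both were lower in every soleus library, with log2 fold changes of -1.45 (SE 0.24, edgeR adjusted p = 0.000889) for Pkm-202 and -1.45 (SE 0.16, edgeR adjusted p = 4.71e-05) for Pkm-201.

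Pkm-202 took 9.17% ± 2.53 of the counts on both in soleus and 9.36% ± 1.84 in TA, and the ranges overlapped. Neither form differed from its gene by more than 0.01 on the log2 scale. The share is not one of M1 against M2 RNA. Of the 413 31-base sequences particular to Pkm-201, 391 lie in its first and last exons, which are longer than those of Pkm-202, and 22 lie around the M2 exon, where Pkm-202 has 19 in all.

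The rest of the pathway was read from gene lists. Of 19 genes for other forms of these steps, hexokinases included, 11 had a count and 6 passed the filter, of which 0 were lower and 1 was higher in soleus, with a median log2 fold change of 0.05 against 0.01 over all genes tested. The gene that rose was Ldhb, the heart-type subunit of lactate dehydrogenase, which averaged 72.9 ± 17.9 CPM in soleus and 4.17 ± 2.30 CPM in TA (SD over 5 libraries). Its log2 fold change was 4.09 (SE 0.36, edgeR adjusted p = 2.79e-06). It had 299 counts in soleus and 19 in TA, and the muscles did not overlap.

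Of the counts on both lactate dehydrogenase genes, Ldhb took 84.0%, 85.7%, 76.6%, 79.2% and 91.5% in soleus, against 6.67%, 2.78%, 6.25%, 8.93% and 11.5% in TA. Since 2 genes cannot be compared in level here, these shares show that the ratio of the genes differed between the muscles, not how much of each subunit there was. The other 5 genes tested were not called. Hk2, which makes the glucose phosphate that enters the pathway, differed by -0.03 (SE 0.17, adjusted p = 0.925 by edgeR), Pfkl, the liver form of phosphofructokinase, by 0.36 (SE 0.33, adjusted p = 0.487), and Pgam1, the general form of the mutase, by 0.14 (SE 0.23, adjusted p = 0.719). Eno1, the general enolase, differed by -0.35 (SE 0.28, adjusted p = 0.418) and Bpgm, which makes bisphosphoglycerate, by -0.65 (SE 0.22, adjusted p = 0.0522). Bpgm was called lower in soleus in 5 of its 20 alternatives, with adjusted p from 0.0132 to 0.344 over all of them.

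The ratio of forms also differed at the mutase and enolase steps. Since Pgam1 and Eno1 were not called, these shares mainly restate the lower levels of Pgam2 and Eno3 in soleus. Pgam1 had 92 counts in soleus and 92 in TA, and took 1.14% ± 0.363 of the counts on both mutase genes in soleus and 0.461% ± 0.123 in TA, with no overlap. Eno1 took 47.0% ± 13.8 of the counts on both enolase genes in soleus (34.6% to 65.6%) and 18.6% ± 4.03 in TA (16.0% to 25.7%), also with no overlap. Pfkl took 32.3% ± 15.7 of the counts on Pfkl and Pfkm in soleus and 10.2% ± 4.08 in TA, and these ranges overlapped. The widest interval on a share of Eno1 in 1 library was 19.1% to 63.9% (exact 95% binomial, on 20 counts), in the second male soleus library.

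**Figure D4:**
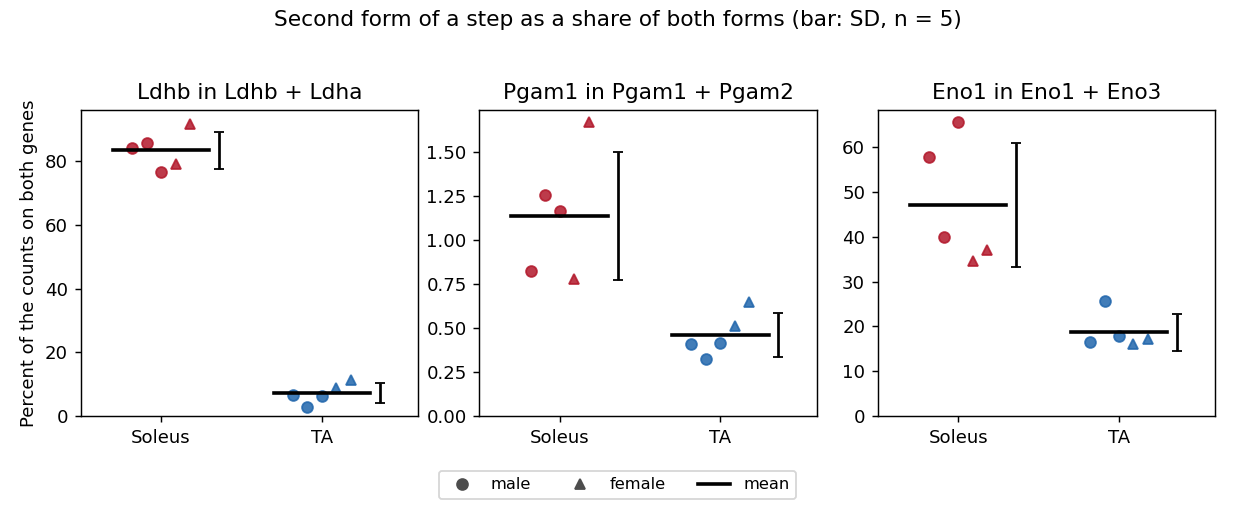
Counts on Ldhb, Pgam1 and Eno1 as a percent of the counts on both genes of their step, in every library, with soleus at the left and TA at the right of each panel. Bars are the SD (n = 5). In each panel the soleus libraries lie above all TA libraries. The share of Pfkl, which overlapped between the muscles, is not drawn.

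Among 7 enzymes that set the level of fructose phosphates, 6 had a count and 2 passed the filter, and both were lower in soleus. Tigar, a phosphatase that acts on fructose bisphosphate, averaged 28.7 ± 7.31 CPM in soleus and 104 ± 12.6 CPM in TA, a log2 fold change of -1.86 (SE 0.20, edgeR adjusted p = 2.32e-05). Fbp2, the muscle fructose bisphosphatase, which runs the phosphofructokinase step backwards, averaged 18.7 ± 8.17 CPM in soleus and 92.1 ± 53.1 CPM in TA. It differed by -2.29 (SE 0.38, edgeR adjusted p = 0.00087). Of 9 factors known to act on glycolytic genes, 3 passed the filter and 0 were called by edgeR. These were Epas1, a hypoxia-inducible factor (-0.32, SE 0.17), Six4, a homeobox factor of muscle (0.17, SE 0.21), and Mlxipl, a glucose-sensing factor (1.26, SE 0.67). Adjusted p-values of these 3 genes ran from 0.192 to 0.639, with 0 at an unadjusted p under 0.05 and 0 called by DESeq2. Epas1 was called lower in soleus in 1 of its 20 alternatives (edgeR adjusted p = 0.0354).

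Gapdh, Pgk1 and Tpi1 are also among 14 genes often used as references in quantitative PCR, of which 9 passed the filter. Those 3 enzymes were the only ones of the 9 called, all lower in soleus. The other 6 were Actb, B2m, Hprt, Ywhaz, Sdha and Tfrc, with log2 fold changes from -0.47 to 0.32 and edgeR adjusted p-values from 0.135 to 0.845.

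**Figure D5:**
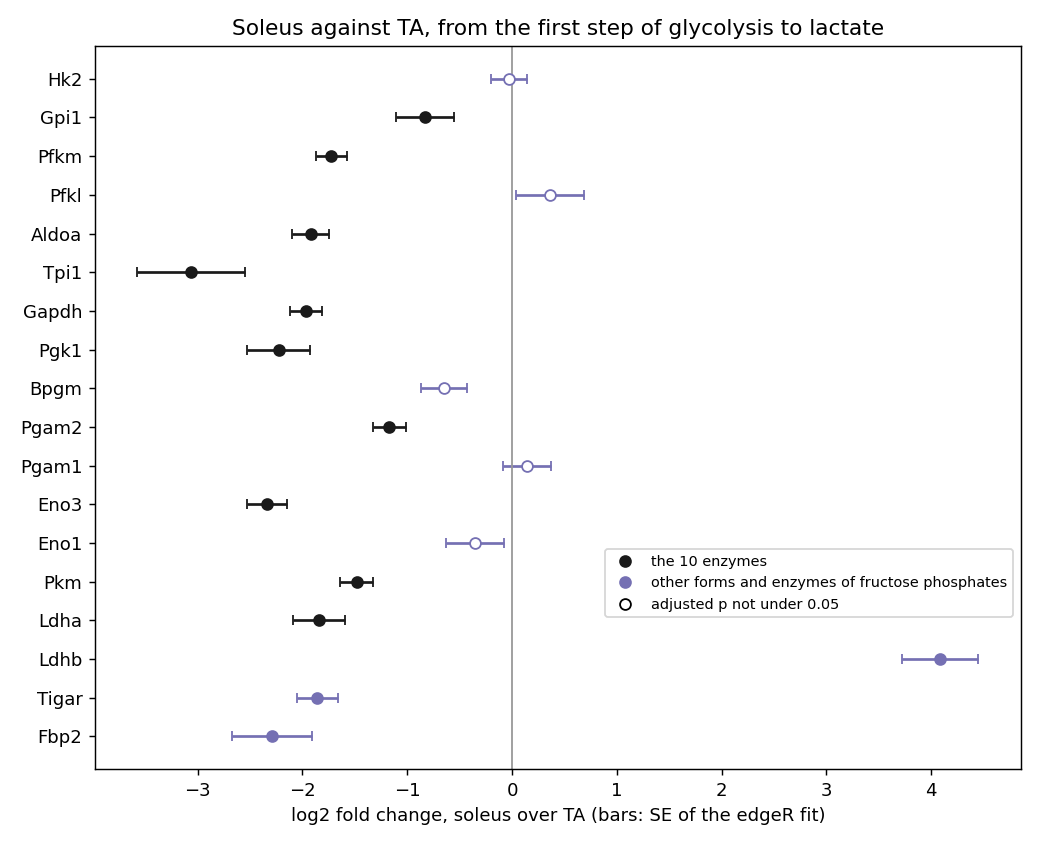
Log2 fold change of soleus over TA with its SE for the 10 enzymes (black) and the tested genes for other forms and fructose phosphates (purple), from hexokinase at the top to lactate dehydrogenase, with Tigar and Fbp2 at the bottom. Open symbols did not pass the adjusted threshold of 0.05. The 10 enzymes lie between -3.06 and -0.83, and Ldhb is at 4.09.

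Between the sexes, 0 of 10 members were called in either muscle by edgeR, where 0.547% of all genes were called in soleus and 0.645% in TA. At an unadjusted p under 0.05, 1 member in soleus and 4 in TA passed, where 845 of the 5115 genes tested passed in soleus and 596 in TA. DESeq2 called 0 members in soleus and 1 in TA, of 123 genes it called in soleus and 79 in TA. Pfkm, which passed unadjusted in both muscles, averaged 23.9 CPM in male and 39.5 CPM in female soleus libraries, a log2 difference of male over female of -0.72 (SE 0.23, edgeR adjusted p = 0.154). In TA it averaged 76.4 CPM in male and 138 CPM in female libraries, a difference of -0.85 (SE 0.19, edgeR adjusted p = 0.0783). In both muscles all male libraries were below both female ones.

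In TA, Pkm averaged 794 CPM in male and 449.6 CPM in female libraries, a difference of 0.82 (SE 0.21, edgeR adjusted p = 0.119), and it was the 1 member called by DESeq2 (adjusted p = 0.0392). Aldoa differed in TA by -0.64 (SE 0.23, edgeR adjusted p = 0.267) and Pgk1 by 0.87 (SE 0.32, edgeR adjusted p = 0.309). The edgeR test also called Pfkm and Pkm in TA when the first female soleus library (adjusted p = 0.0397 and 0.0288) or the second (0.0361 and 0.0326) was left out. With 2 female libraries per muscle the estimates rest on few samples. The difference between muscles was not called as differing between the sexes for any member, with 0 of 10 called by edgeR, 0 by DESeq2 and 1 at an unadjusted p under 0.05. That 1 was Eno3, whose log2 fold change in males minus that in females was -0.76 (SE 0.32, edgeR adjusted p = 0.711). Over all 5115 genes 0.00% were called for this interaction by edgeR, 351 genes had an unadjusted p under 0.05, and DESeq2 called 6.

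The genes whose profile over the 10 libraries was most like the mean of the 10 enzymes were sought among 4201 genes that averaged 10 CPM or more. Likeness was the root mean square distance between log2 CPM profiles, each centred on its mean. The nearest was Ppp1r3a, which targets a phosphatase to glycogen in muscle, at a distance of 0.11. It averaged 584 ± 51.6 CPM in soleus and 1989 ± 244 CPM in TA. After it came Ccdc6 at 0.18, Ston2 at 0.19, Sms, the spermine synthase, at 0.21, and Pkdcc at 0.21. All 5 were nearer than the members themselves were, except that Gapdh, at 0.19, was nearer than Ston2, Sms and Pkdcc, and the other members lay between 0.32 for Eno3 and Ldha and 0.55 for Gpi1. The members' mean evens out counting error that single members carry.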

How the data were processed

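Per the labels' protocols, RNA of whole muscle (Qiagen kit for fibrous tissue) went into Tag-Seq libraries by a stranded Takara SMART-Seq protocol for Illumina sequencing. Trimmomatic 0.32, bcl2fastq, FastQC and GRCm38.p4 are named in the submitters' processing notes, with aligner and counter not given in the sources used here. The files deposited by the authors hold whole-number counts per transcript. Of 40414 transcripts, 40359 matched GENCODE M21, and 55, with 2597 counts, were left out.

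Counts were summed to genes, filtered with filterByExpr by the 4 groups of muscle and sex, scaled by TMM and tested in edgeR 4.0.16 (R 4.3.3, limma 3.58.1) with sex as a covariate. Sex and interaction were tested as contrasts of 4 group means. DESeq2 1.42.0 was an alternative, with other scalings, filters, library sizes, protein-coding transcripts only, 1 sex only and leaving out each library. A 31-base sequence was called a transcript's own when no other transcript of GENCODE M21 held it. Plots were drawn with matplotlib 3.10.9, and tables and intervals made with scipy 1.17.1, numpy 2.4.6 and pandas 2.3.3 in Python 3.11.15. The fits were tested on simulated data. No libraries of a group agreed within sampling noise.

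Libraries of the same sex and number deviated together (r from 0.183 to 0.239 in males, 0.285 in females), so a fit with the number as a replicate block was an alternative. With 2 female libraries per muscle, both female pairs hold the same value by construction. Female libraries of different numbers then hold its negative (-0.285), so these are not separate observations.

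The members and lists were chosen with earlier results of these data known. Genes named are the members, the listed genes that passed the filter (2 genes of the lists are not reported here), and the 5 most alike in profile. Promoters were read from RefSeq (GRCm38.p6).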

Additional observations from a re-analysis of the deposited data

Results flagged for a closer look

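In 4 of 38 groups of 5 libraries checked, 1 library stood apart from the other 4 by Dixon's test, which chance does in about 1 of 20 groups. Tpi1 was at 3.51 CPM in the first male soleus library, where the other soleus libraries had 1.14 to 1.34 CPM, on 3 counts or fewer each. Pgam2 was low in the second female library of both muscles, at 1411 CPM in soleus and 3095 CPM in TA. Its difference between the muscles was nonetheless within the range of the other pairs. Aldoa-210 was high in the second female soleus library, at 100.7 CPM, where the other soleus libraries had 35.1 to 49.1 CPM. Without that library its log2 fold change was -2.73 (edgeR adjusted p = 5.44e-07), and that of Pgam2 was -1.06 (edgeR adjusted p = 0.00034).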

How the results depend on the processing

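Of 199 alternative values for the 10 members' fold changes, 178 kept their direction and side of the threshold, and 0 turned their direction. Gpi1 was no longer called in 12 of its 20 alternatives. Besides the DESeq2 test, these were DESeq2 size factors (adjusted p = 0.0532), a mean of at least 5 CPM (0.0548), females only (0.827) and leaving out any 1 of 8 libraries (0.0584 to 0.123). The other 9 members were called under every alternative that gave them a value but females only; males only gave no value for Tpi1 and called 9 members. In females only, 2 libraries per muscle left 0 members, 19 genes, 6 genes lower in soleus and 0 genes of the lists called. The replicate block called 10 members and 1207 genes, 1069 of them shared with the 1126 called without it, and changed no member's call. Of the lists, 5 genes were called without the filter and 4 with the replicate block or upper-quartile scaling, where the filtered fit called 3. Between sexes in TA, 0 members were called, against 1 by DESeq2 and 0 to 2 when 1 library was left out. Outside Gm20594 and Cep295 the members took 0.397% of counts in soleus and 0.95% in TA. Scalings moved the median of all genes by under 0.1.

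Among listed genes that were not called, directions turned for Actb (0.0263, males only), Hk2 (0.123, females only, and 0.00315, protein-coding transcripts only), Pgam1 (-0.0698, females only), Six4 (-0.164, females only), Tfrc (0.294, males only) and Ywhaz (0.0465, females only). With 1 library left out, log2 fold changes ran from -0.147 to 0.0565 for Hk2 and -0.386 to 0.128 for Tfrc. The cause was not tested. Few counts per soleus library limit Tpi1, Pgk1, Ldha and several transcripts, those of Pfkm, Aldoa-203 and Gapdh-203 among them.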
